A study of Mus musculus with 9 samples.

Results

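The genes described here are 9 members of the fibroblast growth factor (FGF) family and its receptors, measured in cells of the mouse heart: the ligand genes Fgf1, Fgf2, Fgf7, Fgf9 and Fgf10, the genes of the intracellular factors Fgf12 and Fgf13, and the receptor genes Fgfr1 and Fgfr2. They were taken by name from a list. All 9 had a probe set annotated to them alone, 1 each, so no choice between probe sets was needed, and they are 9 of 19933 genes tested. Messenger RNA was profiled on Affymetrix mouse Gene ST arrays in 9 samples, with 3 biological replicates in each of 3 groups that the sample titles name. The groups were embryo cardiomyocytes, described as Nkx-YFP+ (carrying a fluorescent reporter), embryo cardiac fibroblasts and adult cardiac fibroblasts. The labels used here name no treatment, strain, embryonic stage, adult age, sex, pooling of animals or culture for any group. The series was made to look for factors from fibroblasts that make myocytes proliferate.

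Secreted FGFs bind receptor tyrosine kinases on the cell surface together with heparan sulfate, and the activated receptor signals through adaptors to RAS and the ERK MAP kinases. ERK signalling induces its own inhibitors, among them Sprouty and Spred proteins and the dual-specificity phosphatases. The FGF homologous factors, which include Fgf12 and Fgf13, are not secreted in the classical way and bind voltage-gated sodium channels. In the developing heart, FGFs from the epicardium and endocardium act on the myocardium, and Fgf10 is known for its part in the outflow region.

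By group mean, Fgf2, Fgf7 and Fgfr1 were highest in adult fibroblasts, Fgf1, Fgf9 and Fgf13 in cardiomyocytes, and Fgfr2 in embryonic fibroblasts, while Fgf10 and Fgf12 passed the test in none of the 3 comparisons between groups. The largest differences were those of Fgf7, 9.87-fold, and Fgfr1, 7.30-fold, both higher in adult fibroblasts than in cardiomyocytes. Values are log2 expression from RMA, a method that normalizes the arrays and summarizes the probes of a transcript. A fold is a fold between such values, and levels of different genes are not compared because each probe set has its own brightness. A gene is said to rise or fall, or to be called, where limma, a linear model with moderated variances fitted to all 9 arrays, gave a Benjamini-Hochberg adjusted p under 0.05 over all genes. The errors of differences are standard errors of that fit (SE), with 3 arrays in each group.

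The 250 bases before a RefSeq start (GRCm38.p6), 5′ to 3′, are shown for Fgf7, Fgfr2 and Fgf13, which were highest in adult fibroblasts, embryonic fibroblasts and cardiomyocytes, to set the promoters of opposite patterns side by side. RefSeq windows were matched for 7 of the 9 genes, all but Fgf1 and Fgfr1. Capitals mark matches on either strand to 5 short motifs, each searched separately: the TATA box TATAAA, the GC box GGGCGG, the CCAAT box CCAAT, the E-box CANNTG and the AP-1 motif TGANTCA. The windows lie at chr2:126034408-126034657 on the + strand for Fgf7, chr7:130266809-130267058 on the - strand for Fgfr2 and chrX:59585573-59585822 on the - strand for Fgf13.
Fgf7: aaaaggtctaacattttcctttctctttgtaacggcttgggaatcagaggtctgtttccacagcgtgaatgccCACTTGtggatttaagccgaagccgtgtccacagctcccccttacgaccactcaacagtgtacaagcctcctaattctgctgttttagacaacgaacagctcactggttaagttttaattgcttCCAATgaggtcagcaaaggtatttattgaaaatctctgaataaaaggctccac
Fgfr2: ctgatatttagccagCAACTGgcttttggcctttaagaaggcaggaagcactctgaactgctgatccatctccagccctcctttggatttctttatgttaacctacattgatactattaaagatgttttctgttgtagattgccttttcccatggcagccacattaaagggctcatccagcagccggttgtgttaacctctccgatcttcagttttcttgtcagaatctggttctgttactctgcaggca
Fgf13: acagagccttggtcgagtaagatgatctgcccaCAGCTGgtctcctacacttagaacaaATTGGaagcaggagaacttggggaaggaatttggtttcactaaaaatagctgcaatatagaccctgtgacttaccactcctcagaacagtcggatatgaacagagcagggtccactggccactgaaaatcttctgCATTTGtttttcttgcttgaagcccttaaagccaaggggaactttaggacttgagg

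All 3 windows held an E-box match, 1 in Fgf7, 1 in Fgfr2 and 2 in Fgf13, as did 66.2% of the 32851 windows of the same length. A CCAAT match was present in Fgf7 and, on the reverse strand, in Fgf13, against 33.8% of all windows. No letters of the TATA box, the GC box or the AP-1 motif were found in these 3 windows, and 12.4%, 32.7% and 6.75% of all windows hold them. The G and C content was 43.6% in Fgf7, 44.0% in Fgfr2 and 45.6% in Fgf13, below the median of 52.4% over all windows. No matches overlapped. A match is a run of letters and not a measured binding site. For Fgf13 the first RefSeq window is shown; its 3 other windows have G and C contents of 74.8%, 40.4% and 74.4% and 3, 0 and 4 GC box matches, and its single probe set does not tell transcripts of the 4 starts apart.

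Beside the FGF genes the arrays held markers of several cell types. For comparison with the marker counts, 10.3% of all genes were called higher and 11.1% lower in embryonic fibroblasts than in cardiomyocytes. In embryonic against adult fibroblasts these shares were 11.2% and 8.34%, and in adult fibroblasts against cardiomyocytes 17.4% and 18.2%. The mean level of 12 cardiomyocyte markers ran from 12.53 to 12.64 in cardiomyocytes, from 10.97 to 11.68 in embryonic fibroblasts and from 7.83 to 8.21 in adult fibroblasts. That of 12 fibroblast markers ran from 8.61 to 8.87, from 9.98 to 10.23 and from 10.63 to 10.78, in the same order. Cardiomyocyte markers were thus lower in embryonic fibroblasts than in cardiomyocytes, with 10 of 12 called, but higher there than in adult fibroblasts, with 12 of 12 called. All 12 fibroblast markers rose from cardiomyocytes to embryonic fibroblasts, while between the fibroblast groups 7 were higher in adult cells and 2, Fn1 and Col3a1, in embryonic ones, and Fn1 was lower in adult fibroblasts than in cardiomyocytes. RMA gives no value of 0, so no marker can be called absent. The mean of 12 epicardial and mesothelial markers was highest in embryonic fibroblasts, at 8.27 to 8.46 against 7.79 to 7.84 in cardiomyocytes and 7.56 to 7.68 in adult fibroblasts, with 5 of 12 called higher than in cardiomyocytes and 8 of 12 higher than in adult fibroblasts. Endothelial markers lay at 9.44 to 9.94 in embryonic fibroblasts against 8.35 to 8.71 in cardiomyocytes and 8.75 to 9.84 in adult fibroblasts, and 11 of 12 were called higher in embryonic fibroblasts than in cardiomyocytes and 6 of 12 higher in adult ones. Macrophage markers lay at 8.92 to 9.68 in adult fibroblasts, 8.21 to 8.62 in embryonic ones and 7.52 to 7.68 in cardiomyocytes. Their part in the results below was not tested, and in bulk samples fewer cells of a type and less RNA per cell cannot be told apart. Y-linked genes were high in embryonic and low in adult arrays (Eif2s3y 8.43 to 9.33 against 4.67 to 5.10), so sex and age cannot be told apart in comparisons with the adult cells. Xist was bright in both, at 10.49 to 11.16 on embryonic and 11.54 to 11.92 on adult arrays, so the embryonic arrays are not shown to be male only. Adult fibroblast replicate 3 correlated least with its group (mean Pearson r over probes 0.970, against 0.981 for each of the other replicates) and had the narrowest spread of values, an SD over probes of 1.71 against 1.83 to 1.90 on the other arrays.

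**Figure D1:**
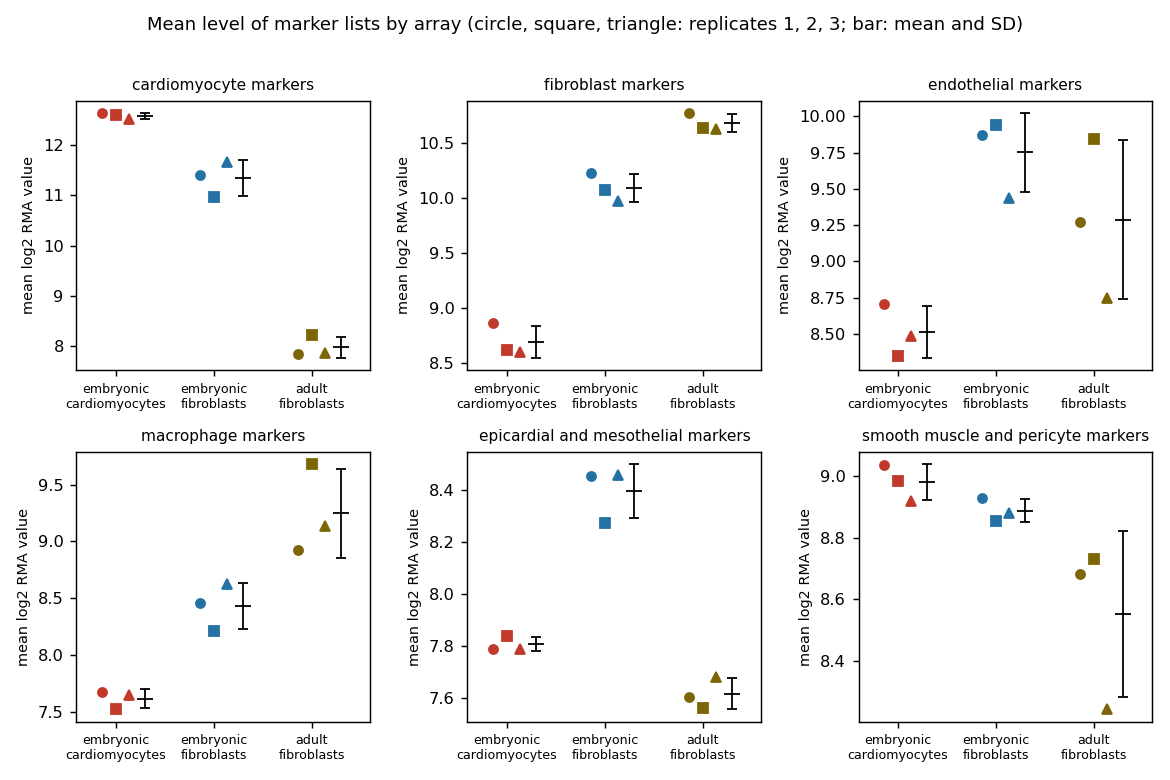
Mean log2 RMA value of 6 marker lists on each array, by group, with points for the 3 replicates and bars for the group mean and SD. Cardiomyocyte markers descend from cardiomyocytes through embryonic to adult fibroblasts, the fibroblast marker mean ascends, and the epicardial and mesothelial marker mean is highest in embryonic fibroblasts.

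Counted by comparison, 3 of the 9 genes rose from cardiomyocytes to embryonic fibroblasts and 3 fell, where 10.3% and 11.1% of all genes did. In embryonic against adult fibroblasts 2 were higher and 3 lower, against 11.2% and 8.34% of all genes. From cardiomyocytes to adult fibroblasts 3 rose and 4 fell, against 17.4% and 18.2%. Groups did not overlap for 7, 5 and 7 of the 9 genes in these comparisons, against 39.1%, 33.0% and 45.9% of all genes. The median log2 differences of the 9 genes were -0.01, -0.10 and -0.30, beside -0.0003, -0.04 and 0.06 over all genes. The members were chosen with earlier results of these data known, so the counts describe these genes only, and the 3 comparisons share their arrays.

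Of the secreted ligands, Fgf7 (keratinocyte growth factor), which mesenchymal cells are known to supply to epithelial cells, showed the widest span. On the cardiomyocyte arrays it read 6.87, 6.98 and 6.26 for replicates 1 to 3, on the embryonic fibroblast arrays 7.36, 7.36 and 7.06, and on the adult fibroblast arrays 10.17, 9.65 and 10.20. All 3 adult arrays lay far above the 6 embryonic ones, and no pair of groups overlapped. The level was 6.68-fold lower in embryonic than in adult fibroblasts (log2 difference -2.74 ± 0.21, adjusted p = 2.41e-05). Adult fibroblasts exceeded cardiomyocytes by 3.30 ± 0.21 (adjusted p = 2.42e-06). Between the embryonic groups the difference of 0.56 ± 0.21 did not pass the test (adjusted p = 0.0916, 95% interval 0.09 to 1.03 before adjustment), and with array weights it did (adjusted p = 0.0427, over a range from 0.0427 to 0.260).

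Fgf2, basic FGF, a mitogen of fibroblasts and endothelial cells that leaves cells without a signal peptide, stepped up from group to group. It measured 6.51, 6.65 and 6.82 in cardiomyocytes, 7.24, 7.598 and 7.45 in embryonic fibroblasts, and 8.98, 9.28 and 9.04 in adult fibroblasts. The 3 groups were separate and ordered, with an SD of 0.16 to 0.18 in each. Embryonic fibroblasts were 1.71-fold above cardiomyocytes (0.77 ± 0.12, adjusted p = 0.00215) and 3.18-fold below adult fibroblasts (-1.67 ± 0.12, adjusted p = 2.05e-05). From cardiomyocytes to adult fibroblasts the rise was 5.43-fold (2.44 ± 0.12, adjusted p = 7.58e-07).

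Fgf9 and Fgf1 went the other way and were highest in cardiomyocytes. Fgf9, a ligand that epicardium and endocardium are known to supply to embryonic myocytes, read 8.32, 8.54 and 8.26 in cardiomyocytes, 7.56, 7.70 and 7.87 in embryonic fibroblasts and 7.07, 7.74 and 7.62 in adult fibroblasts. Cardiomyocytes lay above both fibroblast groups, whose values overlapped. Embryonic fibroblasts were 1.58-fold lower than cardiomyocytes (-0.66 ± 0.17, adjusted p = 0.0214), a call lost without embryo cardiomyocyte replicate 1 (adjusted p = 0.0573) or 2 (0.0885) or embryo cardiac fibroblast replicate 1 (0.0866) or 2 (0.0686). Adult fibroblasts were 1.86-fold lower than cardiomyocytes (-0.90 ± 0.17, adjusted p = 0.00248). The fibroblast groups differed by 0.23 ± 0.17 (adjusted p = 0.397), with a 95% interval from -0.15 to 0.62.

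Fgf1, acidic FGF, which can bind every FGF receptor, had values of 7.77, 7.73 and 7.63 in cardiomyocytes, 7.13, 7.14 and 7.29 in embryonic fibroblasts and 7.37, 7.39 and 7.11 in adult fibroblasts. Here too the cardiomyocytes stood above both fibroblast groups. The fall was 1.44-fold to embryonic fibroblasts (-0.52 ± 0.10, adjusted p = 0.00416) and 1.34-fold to adult fibroblasts (-0.42 ± 0.10, adjusted p = 0.00677). Embryonic and adult fibroblasts overlapped in Fgf1 (-0.10 ± 0.10, adjusted p = 0.519, 95% interval -0.32 to 0.12).

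Fgf10, the ligand of branching organs, read 6.76, 6.83 and 6.94 in cardiomyocytes, 6.87, 6.88 and 6.76 in embryonic fibroblasts and 6.75, 6.63 and 7.77 in adult fibroblasts. The 6 embryonic arrays spanned a narrow band, and adult replicate 3 alone lay above it. No comparison passed the test, with limma adjusted p from 0.573 to 0.989. The 95% intervals before adjustment were -0.57 to 0.55 between the embryonic groups, -0.77 to 0.35 for embryonic minus adult fibroblasts and -0.36 to 0.76 for adult fibroblasts minus cardiomyocytes. The last of these differences was 0.20 ± 0.25 on all arrays and -0.16 ± 0.09 without adult cardiac fibroblast replicate 3 (adjusted p = 0.207), so its sign rested on that array. Fgf10 was dim, with a mean over the 9 arrays of 6.91, just above the 30th percentile of all probe sets.

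**Figure D2:**
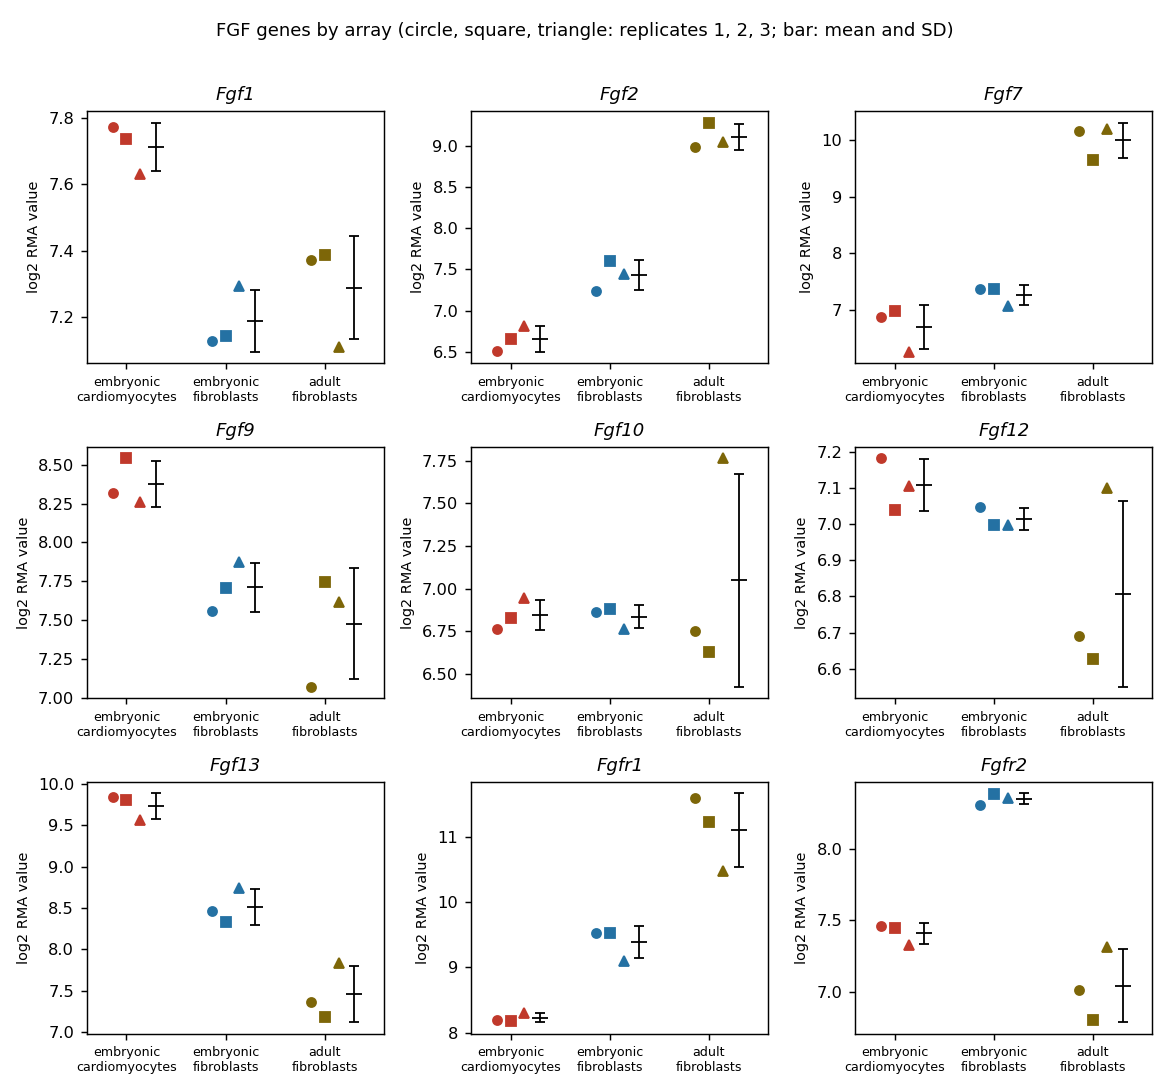
Log2 RMA value of each of the 9 FGF genes on each array, by group, with points for the 3 replicates and bars for the mean and SD of each group. The vertical axes differ between genes. Fgf2, Fgf7 and Fgfr1 climb to adult fibroblasts, Fgf13 descends, Fgfr2 peaks at 8.31 to 8.39 in embryonic fibroblasts, and in Fgf10 and Fgf12 adult replicate 3 lies apart from replicates 1 and 2.

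Of the FGF homologous factors, Fgf13 was the gene that fell most from cardiomyocytes to fibroblasts among the 9. Its values were 9.84, 9.80 and 9.56 in cardiomyocytes, 8.46, 8.33 and 8.74 in embryonic fibroblasts, and 7.36, 7.18 and 7.83 in adult fibroblasts. The groups formed 3 separate steps. Embryonic fibroblasts lay 2.33-fold below cardiomyocytes (-1.22 ± 0.17, adjusted p = 0.00116) and 2.08-fold above adult fibroblasts (1.06 ± 0.17, adjusted p = 0.00227). The drop from cardiomyocytes to adult fibroblasts was 4.85-fold (-2.28 ± 0.17, adjusted p = 7.45e-06). The cardiomyocyte markers took the same order of groups. Within embryonic fibroblasts both were lowest on replicate 2 (markers 10.97) and highest on replicate 3 (markers 11.68). Within cardiomyocytes both descended from replicate 1 to 3 (markers 12.64, 12.60 and 12.53). Within adult fibroblasts they differed, and Fgf13 was lowest on replicate 2, where the markers were highest (8.21). The part of cardiomyocyte RNA in the Fgf13 level of the fibroblast preparations was not tested. Fgf13 lies on the X chromosome.

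Fgf12, another sodium channel partner, read 7.18, 7.04 and 7.11 in cardiomyocytes, 7.049, 6.998 and 6.998 in embryonic fibroblasts and 6.69, 6.63 and 7.10 in adult fibroblasts. Adult replicates 1 and 2 were below all embryonic arrays, and replicate 3 was among them. On all arrays adult fibroblasts differed from cardiomyocytes by -0.30 ± 0.12 (adjusted p = 0.0776), and without adult cardiac fibroblast replicate 3 by -0.45 ± 0.08 (adjusted p = 0.00114). The corresponding values for embryonic minus adult fibroblasts were 0.21 ± 0.12 (adjusted p = 0.278) and 0.36 ± 0.08 (adjusted p = 0.00780). Between the embryonic groups the difference was -0.10 ± 0.12 (adjusted p = 0.675, 95% interval -0.36 to 0.17).

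The receptor genes took opposite directions between embryonic and adult fibroblasts. Fgfr1, the main FGF receptor of mesenchymal cells, measured 8.20, 8.18 and 8.31 in cardiomyocytes, 9.53, 9.53 and 9.10 in embryonic fibroblasts, and 11.59, 11.22 and 10.48 in adult fibroblasts. It stepped up through 3 groups that did not overlap, and the adult arrays were the most scattered, with an SD of 0.57. Embryonic fibroblasts were 2.23-fold above cardiomyocytes (1.16 ± 0.24, adjusted p = 0.00841) and 3.27-fold below adult fibroblasts (-1.71 ± 0.24, adjusted p = 0.00103). Adult fibroblasts exceeded cardiomyocytes by 2.87 ± 0.24 (adjusted p = 1.45e-05). The mean levels of the fibroblast and macrophage marker lists ascended in the same order, though not each marker, as they did beside Fgf2 and Fgf7; their part was not tested. Adult replicate 3 had the lowest adult Fgfr1; without it embryonic minus adult fibroblasts was -2.02 ± 0.15 (adjusted p = 2.47e-05) and adult fibroblasts minus cardiomyocytes 3.18 ± 0.15 (adjusted p = 7.83e-07).

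Fgfr2, whose splice forms are the receptors of Fgf7 and Fgf10 in epithelia and of other ligands in mesenchyme, read 7.46, 7.44 and 7.33 in cardiomyocytes, 8.31, 8.39 and 8.36 in embryonic fibroblasts and 7.01, 6.80 and 7.31 in adult fibroblasts. Embryonic fibroblasts were the highest group and the tightest, with an SD of 0.04. They exceeded cardiomyocytes 1.92-fold (0.94 ± 0.12, adjusted p = 0.000650) and adult fibroblasts 2.48-fold (1.31 ± 0.12, adjusted p = 7.21e-05). Adult fibroblasts fell below cardiomyocytes by a smaller amount (-0.37 ± 0.12, adjusted p = 0.0383). That last call was lost in 10 of 17 alternatives, among them the removal of any single array other than adult cardiac fibroblast replicate 3 (adjusted p from 0.0543 to 0.113), and the replicate block (0.0584). The mean of the epicardial and mesothelial markers was likewise highest in embryonic fibroblasts, and their part in the Fgfr2 level was not tested. A gene-level probe set does not tell the splice forms of the receptors apart.

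**Figure D3:**
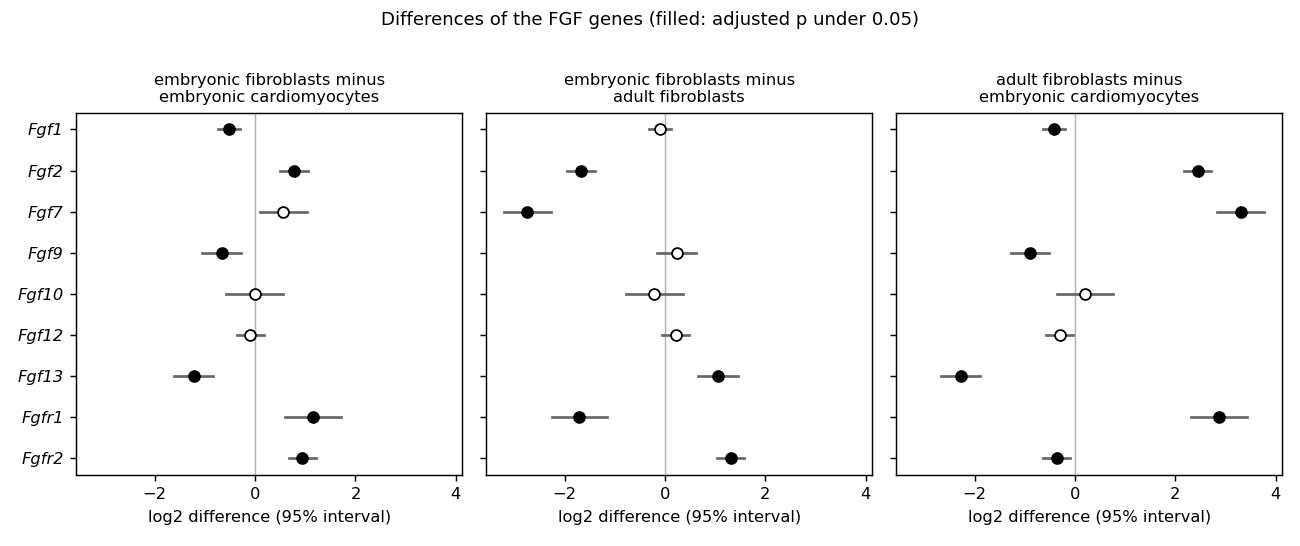
Log2 difference of each of the 9 FGF genes in the 3 comparisons, with the 95% interval of the limma fit before adjustment; filled points passed an adjusted p under 0.05. Fgf7 and Fgfr1 reach furthest in both comparisons with adult fibroblasts, and Fgf10 and Fgf12 have open points throughout.

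The other genes of the family were counted in the same way. Of 18 secreted ligand genes, the 5 above included, 1 rose and 2 fell from cardiomyocytes to embryonic fibroblasts, beside 10.3% and 11.1% of all genes. In embryonic against adult fibroblasts 0 were higher and 2 lower, beside 11.2% and 8.34%. From cardiomyocytes to adult fibroblasts 3 rose and 2 fell, beside 17.4% and 18.2%. Those called were Fgf1, Fgf2, Fgf7, Fgf9 and Fgf16. Fgf16 was higher in adult fibroblasts than in cardiomyocytes (0.50 ± 0.14, adjusted p = 0.0174), a call lost without embryo cardiomyocyte replicate 1 (adjusted p = 0.0707). Of 4 homologous factors, Fgf14 also fell from cardiomyocytes, to embryonic fibroblasts (-0.78 ± 0.15, adjusted p = 0.00542) and to adult fibroblasts (-0.62 ± 0.15, adjusted p = 0.00982). Its values were 7.13, 7.17 and 7.05 in cardiomyocytes, 6.33, 6.21 and 6.45 in embryonic and 6.49, 6.16 and 6.83 in adult fibroblasts, a dim probe set with a mean of 6.65 over all arrays. Of 7 receptor and coreceptor genes, Fgfr1 and Fgfr2 were the ones called in each of the 3 comparisons, and the remaining 5 (Fgfr3, Fgfr4, Fgfrl1, Kl and Klb) passed in none.

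The feedback and target genes of FGF signalling, which other receptor kinases induce as well, were often higher in embryonic fibroblasts than in cardiomyocytes: 9 of 16 rose and 0 fell by limma, beside 10.3% and 11.1% of all genes. Of those that rose, Spry3 was dim, with a mean of 6.42 over all arrays. Spry3 lost its call in 4 of 16 alternatives, Dusp5 in 2 of 17 and Spry4 in 1 of 17. Each of these lost it without embryo cardiac fibroblast replicate 2 (limma adjusted p = 0.0836, 0.0504 and 0.0503). In either direction 10 of 16 had an unadjusted p under 0.05, beside 31.6% of all genes, with a median of 0.47 beside -0.0003 over all genes. Spred1, an inhibitor of RAS-ERK signalling, read 9.53, 9.26 and 9.36 in cardiomyocytes, 10.92, 10.93 and 10.78 in embryonic fibroblasts and 10.81, 10.999 and 11.53 in adult fibroblasts. It rose by 1.49 ± 0.17 to embryonic fibroblasts (adjusted p = 0.000364), and both fibroblast groups overlapped. The Sprouty gene Spry2 rose by 1.07 ± 0.13 (adjusted p = 0.000579), from 9.16, 9.09 and 8.97 to 10.40, 10.18 and 9.86, and reached 10.76, 10.59 and 10.54 in adult fibroblasts. Spred1 and Spry2 were thus higher in both fibroblast groups than on any cardiomyocyte array.

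The phosphatase genes had another shape. Dusp6, which encodes a phosphatase of ERK, read 8.31, 8.06 and 7.96 in cardiomyocytes, 9.15, 8.95 and 9.11 in embryonic fibroblasts and 7.75, 8.39 and 7.56 in adult fibroblasts. Embryonic fibroblasts were above both other groups, by 0.96 ± 0.19 (adjusted p = 0.00669) and 1.17 ± 0.19 (adjusted p = 0.00230). Dusp4, a nuclear phosphatase of MAP kinases, did the same, by 1.63 ± 0.14 against cardiomyocytes (adjusted p = 9.15e-05) and 1.36 ± 0.14 against adult fibroblasts (adjusted p = 0.000128), with values of 6.65, 6.85 and 6.73, then 8.61, 8.46 and 8.05, then 7.07, 6.91 and 7.07. Both phosphatase genes were highest in embryonic fibroblasts without overlap with the other groups, as was Fgfr2. Marker genes such as Fabp7 and Upk1b had this shape too, and a link between the phosphatase genes and Fgfr2 was not tested.

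In embryonic against adult fibroblasts 5 of the 16 feedback and target genes were higher and 1 lower, beside 11.2% and 8.34% of all genes, with a median of 0.20 beside -0.04 over all genes. Those higher included Flrt2, a membrane protein of the FLRT family (1.31 ± 0.10, adjusted p = 1.92e-05), and the ETS factor gene Etv5 (0.68 ± 0.17, adjusted p = 0.0200). The call of Etv5 was lost without embryo cardiac fibroblast replicate 1 (adjusted p = 0.0556) or 3 (0.0729) and with only the fibroblast groups fitted (0.0519). Spry2 was the member that was lower (-0.48 ± 0.13, adjusted p = 0.0304), and that call was lost in 6 alternatives (adjusted p from 0.0521 to 0.0991): without adult cardiac fibroblast replicate 1 or 2, embryo cardiac fibroblast replicate 2 or 3 or embryo cardiomyocyte replicate 2, or with only the fibroblasts fitted. Between adult fibroblasts and cardiomyocytes, where 17.4% of all genes rose and 18.2% fell, 5 of the 16 rose, led by Spred1 (1.73 ± 0.17) and Spry2 (1.56 ± 0.13), followed by Spry3 (0.45 ± 0.14) and Spred2 (0.42 ± 0.10), and 2 fell, Flrt2 (-0.86 ± 0.10) and Flrt3 (-0.66 ± 0.20, adjusted p = 0.0309). The Flrt3 call was lost without adult cardiac fibroblast replicate 1 or 2 or embryo cardiomyocyte replicate 1 or 2 and with only these groups fitted (adjusted p from 0.0517 to 0.119). Spry3 lost its call without adult cardiac fibroblast replicate 1 or 3 or embryo cardiomyocyte replicate 1 or 2 and with array weights (adjusted p from 0.0541 to 0.120). Spry4 also rose (0.41 ± 0.14, limma adjusted p = 0.0431), and its call was lost in 8 of 17 alternatives. The 5 that rose became 3 without adult cardiac fibroblast replicate 3 and 3 without embryo cardiomyocyte replicate 2.

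**Figure D4:**
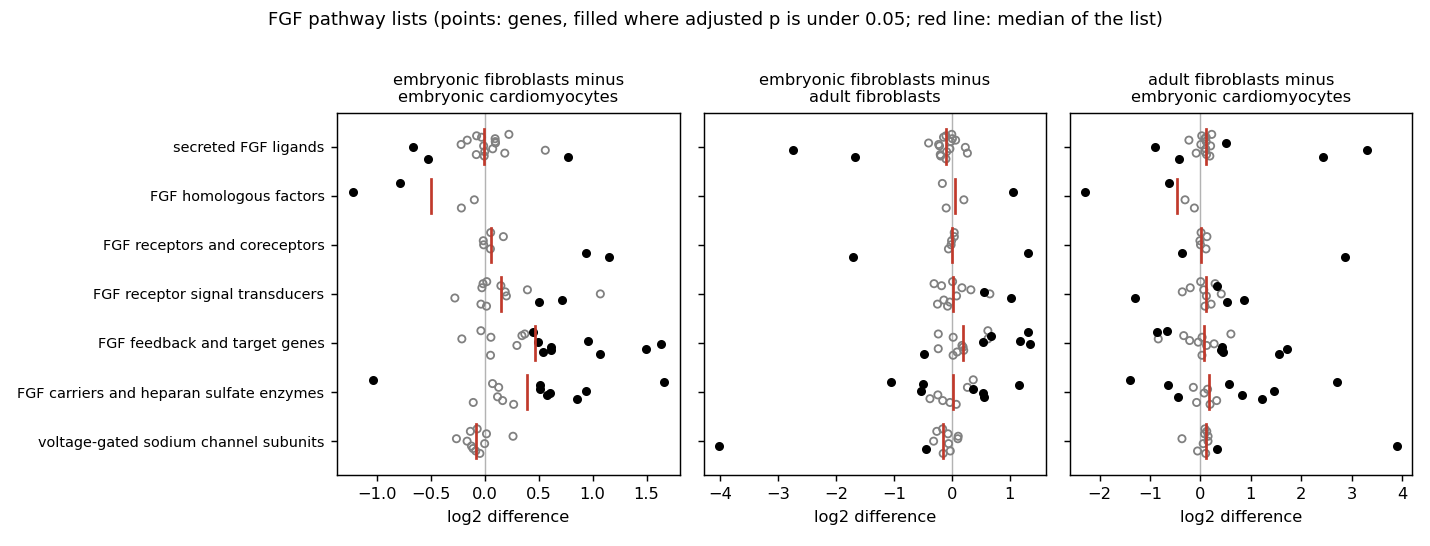
Log2 difference of the measured genes of 7 FGF pathway lists in the 3 comparisons; each point is a gene, filled where the adjusted p was under 0.05, and red lines mark list medians. The median of the feedback and target genes lies to the right of 0 between the embryonic groups, at 0.47, with Etv1 and Flrt3 to the left. Scn7a is the outlying sodium channel gene in both comparisons with adult fibroblasts.

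Among carriers of FGFs and enzymes of heparan sulfate, the sugar chain that holds ligand and receptor together, 7 of 14 measured genes rose from cardiomyocytes to embryonic fibroblasts and 1 fell, beside 10.3% and 11.1% of all genes (median 0.39 beside -0.0003 over all genes). The genes of the extracellular sulfatases, which remove sulfate groups from these chains, moved in opposite directions. Sulf1 read 8.69, 8.16 and 8.20 in cardiomyocytes, 10.23, 10.09 and 9.73 in embryonic fibroblasts and 11.25, 11.13 and 10.82 in adult fibroblasts, a rise of 1.66 ± 0.18 and then a further step (embryonic minus adult -1.05 ± 0.18, adjusted p = 0.00312). Sulf2 read 9.92, 9.83 and 9.76, then 8.85, 8.57 and 9.001, then 8.38, 8.36 and 8.56, a fall from cardiomyocytes to embryonic fibroblasts (-1.03 ± 0.12, adjusted p = 0.000378). Both embryonic and adult fibroblasts were thus above cardiomyocytes in Sulf1 and below them in Sulf2.

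Of the chain-building enzymes, Glce, the epimerase, rose by 0.94 ± 0.09 from cardiomyocytes to embryonic fibroblasts, the polymerase gene Ext1 by 0.85 ± 0.19 and the sulfotransferase gene Ndst3 by 0.61 ± 0.09. Ndst3 was dim, with a mean of 6.30 over all arrays. In embryonic against adult fibroblasts, where 11.2% of all genes were higher and 8.34% lower, 4 of the 14 were higher, Hs6st2 (a sulfotransferase, 1.17 ± 0.12), the polymerase gene Ext2 (0.55 ± 0.11), Ndst3 (0.53 ± 0.09) and Hs2st1 (0.37 ± 0.10), and 3 lower, Sulf1, Glce (-0.53 ± 0.09) and Hs3st1 (-0.50 ± 0.11), with a median of 0.02. Hs2st1 lost its call without adult cardiac fibroblast replicate 3 or embryo cardiac fibroblast replicate 1 or 3 and with the replicate block (adjusted p from 0.0509 to 0.0867). From cardiomyocytes to adult fibroblasts 5 rose and 3 fell, beside 17.4% and 18.2% of all genes (median 0.17), with Sulf1 (2.71 ± 0.18), Glce (1.47 ± 0.09), Ext1 (1.23 ± 0.19) and Ndst2 (0.82 ± 0.13) rising most. Those that fell were Sulf2 (-1.40 ± 0.12), Hs6st2 (-0.65 ± 0.12) and Ext2 (-0.43 ± 0.11), the last not called without adult cardiac fibroblast replicate 2 or embryo cardiomyocyte replicate 1 or with quantile normalization (adjusted p from 0.0511 to 0.0604).

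Of 13 measured signal transducers, the RAS activator genes Sos2 (0.72 ± 0.08) and Sos1 (0.50 ± 0.08) rose from cardiomyocytes to embryonic fibroblasts and 0 fell by limma, beside 10.3% and 11.1% of all genes. An unadjusted p under 0.05 was found for 4 of 13, close to the 31.6% of all genes. The 2 that rose became 4 without adult cardiac fibroblast replicate 3, and 1 fell without embryo cardiac fibroblast replicate 3. Between the fibroblast groups 2 of the 13 were higher in embryonic cells and 0 lower, beside 11.2% and 8.34% of all genes. Gab1, an adaptor of receptor kinases, was higher in embryonic cells (1.02 ± 0.11, adjusted p = 0.000250), at 9.70, 9.75 and 10.03 against 8.65, 8.89 and 8.87. So was Plcg1, a phospholipase that FGF receptors activate (0.55 ± 0.13, adjusted p = 0.0153). The Plcg1 call was lost without embryo cardiac fibroblast replicate 2 (adjusted p = 0.0628) and with only the fibroblasts fitted (0.0525). In adult fibroblasts against cardiomyocytes Sos2, Sos1 and the kinase gene Braf (0.33 ± 0.08) were higher and Gab1 lower (-1.30 ± 0.11). On all 9 arrays 17.4% of all genes were higher and 18.2% lower in this comparison. Without adult cardiac fibroblast replicate 3 the 3 higher became 7, and without adult replicate 1 or 2 the lower gene became 2. The other genes of this list, and 1 of the preceding one, were not analysed here.

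The sodium channel subunits, the binding partners of Fgf12, Fgf13 and Fgf14, were measured for 11 of 14 genes, and the others were not analysed here. By limma 0 of the 11 rose and 0 fell between the embryonic groups, beside 10.3% and 11.1% of all genes, with 1 of 11 at an unadjusted p under 0.05, beside 31.6% of all genes. Scn7a, a sodium channel of the atypical kind, stood out in adult fibroblasts, at 10.47, 10.28 and 11.33 against 6.81, 6.70 and 6.52 in embryonic fibroblasts and 6.59, 6.91 and 6.90 in cardiomyocytes. Adult fibroblasts were far above all embryonic arrays (embryonic minus adult -4.02 ± 0.24, adjusted p = 5.63e-06). Of 10 measured Schwann cell and glial markers, Cdh19 moved with it, at 7.27, 7.14 and 7.94 in adult fibroblasts against 4.78 to 5.04 on the embryonic arrays (-2.52 ± 0.18, adjusted p = 1.77e-05), and both genes were highest on adult replicate 3. Cdh19 was the 1 marker of that list called higher in adult than in embryonic fibroblasts. Fabp7 went the other way and was higher in embryonic fibroblasts (2.72 ± 0.25, adjusted p = 7.22e-05). Of all genes, 8.34% were called higher in adult and 11.2% in embryonic fibroblasts. The list's mean ran from 7.16 to 7.25 in cardiomyocytes, 7.39 to 7.49 in embryonic and 7.39 to 7.61 in adult fibroblasts. The part of these markers in the Scn7a level was not tested. Scn3a was also higher in adult fibroblasts than in embryonic ones (-0.44 ± 0.11, embryonic minus adult, adjusted p = 0.0232), a call lost without adult cardiac fibroblast replicate 1 or embryo cardiac fibroblast replicate 3 and with only the fibroblasts fitted (adjusted p from 0.0516 to 0.0703). Its probe set was dim, with a mean of 5.57 over all arrays. Against cardiomyocytes Scn7a was higher by 3.90 ± 0.24 (adjusted p = 2.17e-06) and Scn3a by 0.33 ± 0.11 (adjusted p = 0.0468), the latter lost in 8 of 16 alternatives (adjusted p from 0.0632 to 0.120), among them the removal of adult cardiac fibroblast replicate 1 or 3, embryo cardiac fibroblast replicate 2 or any cardiomyocyte array.

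**Figure D5:**
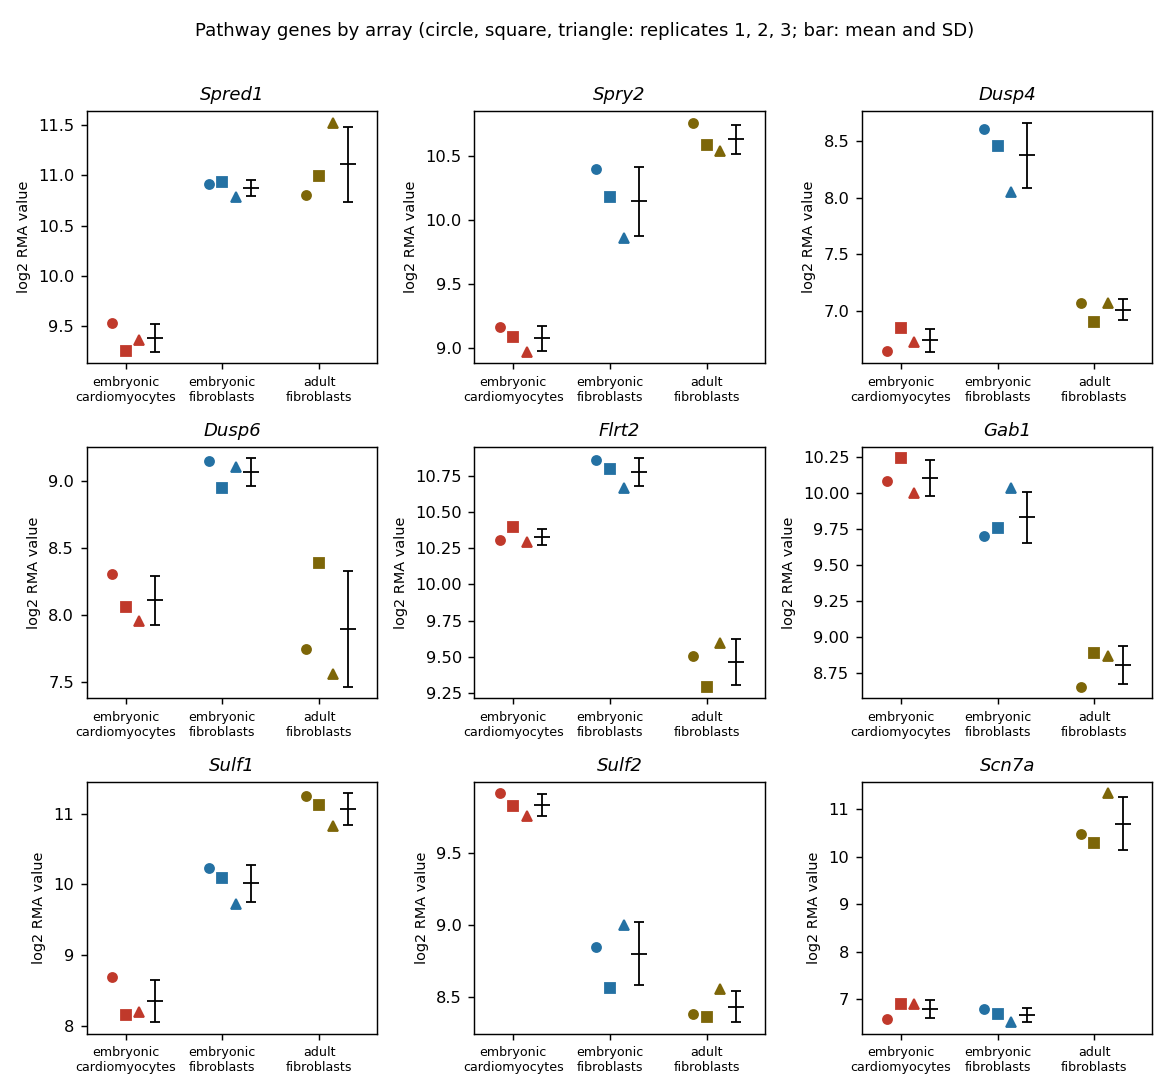
Log2 RMA value of 9 named pathway genes on each array, by group, with points for the 3 replicates and bars for the mean and SD. Spred1 and Spry2 are high in both fibroblast groups, Dusp4 and Dusp6 are highest in embryonic fibroblasts, Sulf1 climbs where Sulf2 descends, and Scn7a is high in adult fibroblasts alone among these 3 groups.

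Genes with the most similar pattern were sought by the root mean square difference of log2 values over the 9 arrays, after each gene's own mean was subtracted; this is a description with no test. Closest to Fgf13 were Ccdc181 (0.11), the desmosomal cadherin gene Dsc2 (0.11) and the mitotic kinase gene Plk1 (0.13). Fgfr1 was most like Fosl1, which encodes an AP-1 subunit (0.11), followed by the aminotransferase gene Bcat1 (0.21) and Tnfaip2 (0.22). For Fgfr2 they were the amino acid transporter gene Slc38a5 (0.08), Dpy19l3 (0.13) and Pkhd1l1 (0.13).

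Fgf7 was nearest to the membrane glycoprotein gene Gpm6b (0.24), the lipid phosphatase gene Plpp3 (0.25) and the matrix proteoglycan gene Prelp (0.26). Fgf2 was nearest to the lectin gene Clec4n (0.19), Mcoln2 (0.20) and the hyaluronan receptor gene Layn (0.20). The cardiomyocyte-high ligand genes had neighbours at small distances, Gadd45gip1 (0.05), Trp53inp2 (0.06) and Ablim1 (0.07) for Fgf1 and Zfp788 (0.11), Bbof1 (0.11) and Zfp810 (0.12) for Fgf9.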

How the data were processed

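Total RNA was extracted with Trizol and labelled with biotin (Ambion MessageAmp kit), per the labels' protocols. The deposited values are log2 expression that the authors made with RMA, per the submitters' processing notes. The log base is not stated, and the values, from 2.70 to 14.20, were read as log2. Array medians run from 7.602 to 7.651, so genes were not centred. For the genome build, the annotation and joint normalization of the arrays, nothing is stated in the labels. RMA values hold no background measure per probe set and compress differences of dim genes. Precision is limited by the number of arrays.

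Of 28767 probe sets, 21776 had a single gene symbol in the platform annotation, 1618 several and 5373 none; only the first were tested. The RefSeq gene table (GRCm38.p6) held 21686 of these probe sets by Entrez identifier and changed 0 symbols. The brightest probe set over the 9 arrays stood for each of 19933 genes, 993 of which had more than 1. All 9 arrays were fitted with limma 3.58.1 under R 4.3.3, using lmFit and eBayes, with a mean per group and no filter, and tested two-sided with Benjamini-Hochberg adjustment. The script was tested on simulated data. The labels call the replicates biological.

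Named genes are the 9 members in every comparison, up to 4 called genes per direction in each of 7 pathway lists (83 of 93 genes measured), and the 3 nearest patterns of each called member. The members and lists were chosen with earlier results of these data known. Alternatives were a block for the replicate number, centring on array medians, quantile normalization, a filter at the 30th percentile of mean values, the mean of all probe sets, array weights, fitting only the groups compared, an intensity trend, and leaving out each array. Python 3.11.15 with matplotlib 3.10.9 made the figures. RefSeq promoter windows, from GRCm38.p6, were cut to the 250 bases before each start.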

Additional observations from a re-analysis of the deposited data

How the results depend on the processing

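Counts of called members stayed between 5 and 7 of 9 for embryonic fibroblasts against cardiomyocytes, 5 and 6 against adult fibroblasts, and 6 and 8 for adult fibroblasts against cardiomyocytes, over 17 alternatives each, and counts of pathway genes at 21 to 37, 18 to 29 and 25 to 34 of up to 83. Of 18 called differences of the members, 16 kept direction and call throughout; Fgf9 between the embryonic groups and Fgfr2 between adult fibroblasts and cardiomyocytes lost the call in some. Of 60 called differences of other pathway genes, 15 lost it under at least 1 alternative, and 0 turned. Fgf10, never called, changed sign: between the embryonic groups to 0.0185 with array weights and over -0.0497 to 0.0398 with single arrays left out, for embryonic minus adult fibroblasts to 0.0727 and over -0.4222 to 0.1468, and for adult fibroblasts minus cardiomyocytes to -0.0542 and over -0.1558 to 0.4132. The last pairs turned without adult replicate 3; the cause was not tested. With the replicate number as a block 6, 5 and 6 members were called, and 4 of 78 called differences were lost, those of Fgfr2 and Spry4 and Scn3a between adult fibroblasts and cardiomyocytes and of Hs2st1 between the fibroblast groups. Deviations from the group means correlated at -0.20 to 0.20 between same-numbered arrays, over 0.1 in 3 of 9 pairs. Between differently numbered arrays they correlated at -0.22 to 0.19, over 0.1 in 3 of 18 pairs. Deviations of 3 arrays sum to 0 in each group, so these correlations cannot decide whether same-numbered arrays were paired. With quantile normalization Fgf12 passed in adult fibroblasts against cardiomyocytes (-0.36, adjusted p = 0.0192). With array weights Fgf12 passed in that comparison (-0.39, limma adjusted p = 0.00297) and in embryonic minus adult fibroblasts (0.32, limma adjusted p = 0.0146). For dim genes no background level is given.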
